A study of Mus musculus with 7 samples.

Results

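The vascular endothelial growth factor (VEGF) family was examined as 9 genes out of the 32285 in the files, chosen by their symbols: 4 ligands (Vegfa, Vegfb, Vegfc and Pgf), 3 tyrosine kinase receptors (Kdr, Flt1 and Flt4) and 2 co-receptors (Nrp1 and Nrp2). All 9 symbols were found in the files, each with 1 gene identifier. Droplet single-cell RNA sequencing had been run on whole brain tumours of NSCG, a mouse glioma line with the EGFRvIII receptor, an mCherry tag and loss of Arf/Ink4a, grown in wild-type C57BL/6 mice 7 to 10 weeks old. The 7 libraries each pooled at least 2 mice and were taken at about day 14, so that a library counts as 1 replicate and the spread between mice is not known.

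UT (1 library) was untreated. IgG (2 libraries) received an isotype control antibody at 10 mg/kg. BP (2 libraries) were from mice given B20, which binds and blocks VEGF (5 mg/kg), and anti-PD-L1 (10 mg/kg), and BPI (1 library) had the 2 antibodies with IPI-145, an inhibitor of PI3 kinases, by gavage at 10 mg/kg. CD40 (1 library) received an agonist antibody to CD40 at 100 µg per dose, with or without a vaccine of dendritic cells, which the labels do not settle. Libraries are written with their replicate number, as IgG 1 or BP 2. BP and BPI are called the anti-VEGF libraries here, but every mouse given B20 was also given anti-PD-L1, so the parts of the 2 antibodies cannot be told apart. The tumour is 1 cell line, and its EGFRvIII and mCherry transgenes are not among the genes counted.

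VEGF ligands are secreted proteins that drive the growth and leakiness of blood vessels, which are abundant in glioblastoma. Vegfa acts mainly through Kdr (VEGFR2), the chief signalling receptor of endothelial cells, while Flt1 (VEGFR1) binds Vegfa, Vegfb and Pgf with high affinity and can act as a trap for them. Vegfc signals through Flt4 (VEGFR3), best known from lymphatic vessels and sprouting tip cells, and Nrp1 and Nrp2 are co-receptors that also bind class 3 semaphorins. An antibody against VEGF acts on the protein, and RNA levels do not measure how much free protein remains.

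The 7 libraries held 68997476 to 186793886 unique molecular identifiers (UMIs, each counting 1 captured RNA molecule), and 48588 cells were kept. Of these, 42 clusters were formed without using any of the 9 genes, and 18 classes were named from marker genes, each written with the ending "-like". They included 31646 tumour-like, 3593 monocyte/macrophage-like, 2342 microglia-like, 2613 T-like and 358 endothelial-like cells, and 5690 cells stayed unnamed. No 2 libraries shared more than 26 cell barcodes. Of the barcodes listed for UT, 4.27% were also listed for IgG 2, against 47.7% to 49.3% for the other 5 libraries. UT thus drew on another barcode list than the rest, although the labels give 1 kit chemistry, and its treatment and barcode list cannot be told apart. Endothelial-like cells held the markers of that class: in every library all 10 endothelial markers (Pecam1, Cldn5, Cdh5 and others) were detected in them, with a summed level of 6281 CPM in BP 1 to 10465 CPM in BP 2. Levels are UMIs of a gene in the class and library, scaled to counts per 1e6 UMIs (CPM). They are compared between classes and libraries for 1 gene at a time, and error bounds on single libraries cover counting error only.

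IgG 1, BP 2 and BPI carry consecutive library names, as do IgG 2 and CD40, and in tumour-like cells the first 3 lay wholly below the other 4 libraries in 5 of the 9 genes, Nrp1, Vegfc, Flt1, Kdr and Pgf, beside 27.1% of the 20226 genes tested there. They lay wholly above in 0 of the 9 (9.21% of genes). Nrp1 in tumour-like cells was 0.30, 0.31 and 0.19 CPM in IgG 1, BP 2 and BPI, and 41.5, 16.2, 57.5 and 17.8 CPM in UT, IgG 2, BP 1 and CD40. Vegfc was 0.40, 0.68 and 0.77 CPM in the same 3 libraries against 1.84, 12.2, 16.5 and 13.8 CPM in UT, IgG 2, BP 1 and CD40. For both genes the IgG pair and the BP pair each held 1 library of the low set and 1 of the high set. For the genes that the comparisons turn on, values within the 3 consecutive libraries, which hold 1 IgG and 2 anti-VEGF libraries, are also given.

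The starts of 3 genes on which the results turn are shown, Vegfa as the target of B20 and Kdr and Flt1 as the receptors that mark the endothelial-like cells. Each is the 250 bases before the start in RefSeq on GRCm38.p6, 5′ to 3′ on the strand of the gene, with GC boxes (GGGCGG on either strand) in capitals.
Vegfa (chr17:46032378-46032627, minus strand): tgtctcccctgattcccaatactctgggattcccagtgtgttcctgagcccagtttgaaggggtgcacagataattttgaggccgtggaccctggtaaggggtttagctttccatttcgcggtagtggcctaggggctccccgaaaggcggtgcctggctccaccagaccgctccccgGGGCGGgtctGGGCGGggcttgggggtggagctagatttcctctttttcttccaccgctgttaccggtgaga
Kdr (chr5:75978456-75978705, minus strand): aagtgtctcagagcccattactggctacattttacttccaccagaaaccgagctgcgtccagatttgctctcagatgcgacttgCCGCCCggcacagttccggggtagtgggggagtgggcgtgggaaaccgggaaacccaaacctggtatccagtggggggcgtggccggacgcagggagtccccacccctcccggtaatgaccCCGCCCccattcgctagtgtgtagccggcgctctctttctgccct
Flt1 (chr5:147726012-147726261, minus strand): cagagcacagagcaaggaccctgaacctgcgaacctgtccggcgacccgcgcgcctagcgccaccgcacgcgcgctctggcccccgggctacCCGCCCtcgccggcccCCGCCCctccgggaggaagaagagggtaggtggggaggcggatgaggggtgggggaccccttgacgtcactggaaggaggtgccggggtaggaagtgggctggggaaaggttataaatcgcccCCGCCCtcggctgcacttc
All 9 genes held at least 1 GC box in this window, from 1 in Nrp1 to 5 in Nrp2, while 32.7% of the 32851 promoters in the table did. Of the core of the hypoxia response element only the form ACGTG (either strand) was searched, and it was in none of the 9 and in 16.6% of all promoters. The other form, GCGTG, was not counted. The Kdr sequence above holds it, and the Flt1 sequence holds it on the other strand (CACGC). Flt1 alone among the 9 held a cyclic AMP response element (TGACGTCA), which 1.55% of promoters hold, and a TATA motif (TATAAA on either strand), which 12.4% hold. The G and C content was 59.2% for Vegfa, 61.6% for Kdr and 70.4% for Flt1, beside a median of 52.4% over all promoters. These are matches of letters in 1 window and say nothing of whether a factor binds there or elsewhere.

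In the GENCODE annotation of GRCm38, Vegfa lies at chr17:46016993-46032369, Vegfb at chr19:6982473-6987651, Vegfc at chr8:54077606-54187096 and Pgf at chr12:85166635-85177790. Kdr lies at chr5:75932827-75978458, Flt1 at chr5:147561604-147726011, Flt4 at chr11:49609263-49652739, Nrp1 at chr8:128358604-128503363 and Nrp2 at chr1:62703285-62818695. Only Nrp1 (with Mir1903) and Nrp2 (with Gm29083 and Gm37121) overlap other annotated genes, and reads of overlapping genes may be assigned to either.

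The ligands came mostly from tumour cells in total, but at higher levels per RNA from less abundant cells. Of all Vegfa UMIs in kept cells, 88.7% were in tumour-like cells (85.0% to 96.8% by library), and 6.24% were in monocyte/macrophage-like cells, or 2.31% without BP 1. Tumour-like cells likewise held 91.5% of Vegfb (88.2% to 95.8% by library), 92.7% of Vegfc (77.0% to 96.0%) and 77.6% of Pgf UMIs (61.8% to 95.3%). By level, Vegfa was highest in astrocyte-like cells, at 156 ± 63.9 CPM (SD, n = 2), against 29.4 ± 19.2 CPM in tumour-like cells (SD, n = 7). The astrocyte-like values, 202 CPM in IgG 2 and 111 CPM in CD40, were both above every tumour-like value, the highest of which was 70.8 CPM, although they rest on 20 and 28 cells. NK-like cells held Vegfa at 53.7 ± 23.8 CPM (SD, n = 6), from 19.7 CPM in UT to 90.1 CPM in BPI, a range that overlaps the tumour-like one.

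Each of the other ligands had its own set of sources. Vegfb, whose receptor is Flt1, was at 101 ± 13.8 CPM in astrocyte-like cells (SD, n = 2), 64.1 ± 1.55 CPM in choroid plexus-like cells (SD, n = 2) and 59.7 ± 18.0 CPM in tumour-like cells (SD, n = 7), the last 2 overlapping. Pgf, a Flt1 ligand, was highest in mural-like cells, the pericytes and smooth muscle of vessels, at 71.8 CPM in UT, 67.8 CPM in BP 1, 182 CPM in IgG 2 and 163 CPM in CD40. Fibroblast-like cells followed with 87.9 CPM in the only library with 20 of them, and tumour-like cells were lower in every library, from 3.12 CPM in IgG 1 to 7.90 CPM in UT. Vegfc was highest in mast or basophil-like cells, a class found in numbers in 1 library (94.5 CPM from 18 UMIs in 48 cells of BP 1). It was next highest in fibroblast-like cells, at 58.6 CPM in CD40, and in NK-like cells, at 24.5 ± 15.8 CPM (SD, n = 6).

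**Figure D1:**
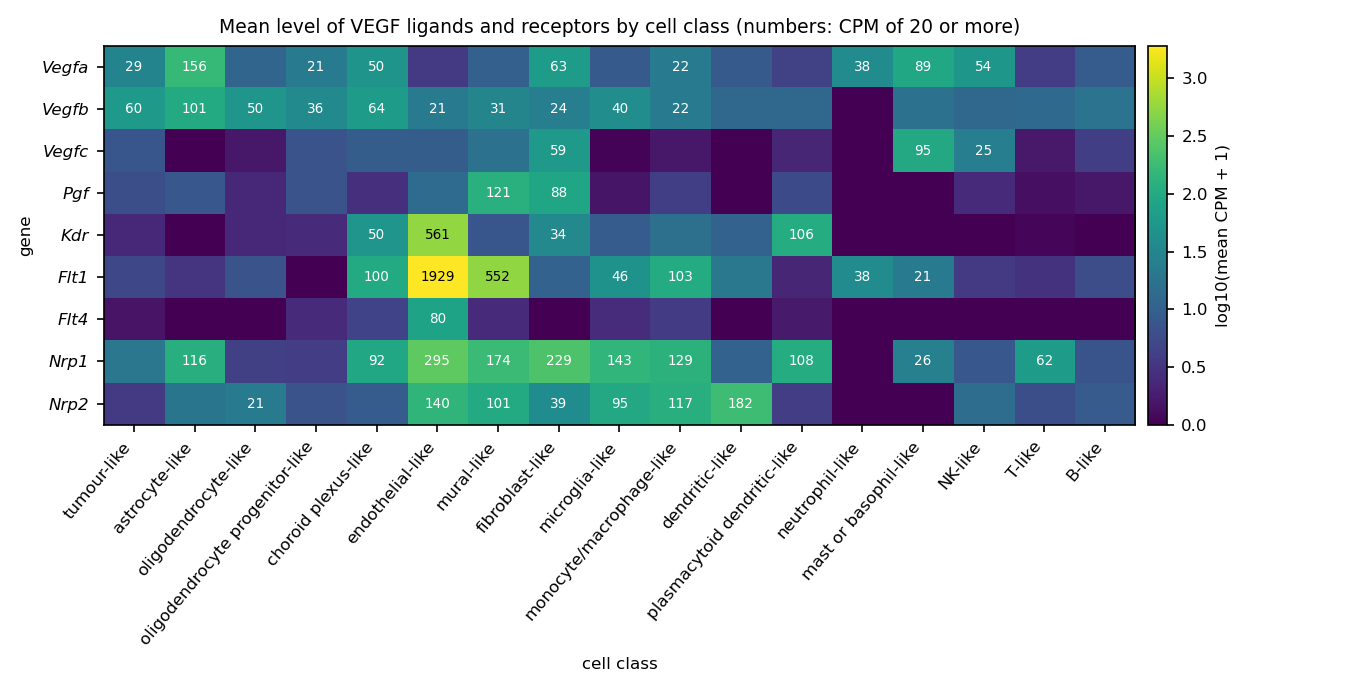
Mean level of each gene (rows) in 17 cell classes (columns), as the mean over the libraries with enough cells of the class; colour is log10(mean CPM + 1) and numbers give means of 20 CPM or more. Kdr, Flt1 and Flt4 have their highest means in endothelial-like cells, Pgf in mural-like cells and Vegfa in astrocyte-like cells.

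The 3 kinase receptors were highest in endothelial-like cells, and their next classes differed. Flt4 was at 79.8 ± 33.5 CPM there (SD, n = 7), from 33.2 to 129.2 CPM, and its next class, choroid plexus-like cells, had 3.64 CPM, with no overlap between libraries. Of the lymphatic genes listed, Ccl21a and Prox1 were the most abundant in these cells, and they differed in order. Ccl21a, a chemokine, was at 1455 CPM in UT, 1087 CPM in BPI and 139 CPM in BP 1, and at 0 to 384 CPM in the other 4 libraries. Prox1 was at 37.4 CPM in BP 1, whose endothelial-like cells also held the most tumour-marker RNA (given with the receptors), and at 0 to 2.45 CPM in the other 6. Prox1 is also 1 of the list's most abundant genes in tumour-like cells, and the part of tumour RNA in its value was not tested. Kdr was at 561 ± 261 CPM (SD, n = 7), from 249 CPM in BP 1 to 969 CPM in BP 2. Flt1 was at 1929 ± 1197 CPM (SD, n = 7), and mural-like cells followed with 552 ± 485 CPM (SD, n = 4). The mural-like mean rests on BP 1, with 1273 CPM in 10 cells, inside the endothelial-like range of 1102 to 4587 CPM. The other 3 libraries had 222 to 359 CPM, below that range, and a mean of 311 ± 77.3 CPM (SD, n = 3). At least 1 Kdr UMI was found in 81.0% of endothelial-like cells, in 35.8% of plasmacytoid dendritic-like cells and in 0.0765% of T-like cells, whose median depth per library was 2147 to 15472, 2983 to 9340 and 2392 to 6089 UMIs per cell. After thinning each cell to 1000 UMIs, the median over libraries was 43.5%, 8.33% and 0%.

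Kdr RNA was not limited to vessels: plasmacytoid dendritic-like cells, which in mice are interferon producers, held it in every library with 20 or more of them. The level was 126 CPM in UT, 80.8 CPM in BP 1 and 111 CPM in BPI, and free RNA accounted for an estimated 0.207% of it at most. All 3 values lay below the lowest endothelial-like value of 249 CPM and above the highest choroid plexus-like one of 68.9 CPM, the next class. Flt1 was at 0 UMIs in UT and BPI and 3.70 CPM in BP 1, with UMIs in 2.19% of these cells.

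The co-receptors were more widely spread than the kinase receptors. Nrp1 was at 295 ± 78.2 CPM in endothelial-like cells (SD, n = 7), 229 CPM in fibroblast-like cells (1 library), 174 ± 82.9 CPM in mural-like cells (SD, n = 4), 143 ± 40.9 CPM in microglia-like cells and 128.7 ± 53.5 CPM in monocyte/macrophage-like cells (SD, n = 7 each), and neighbours in this order overlapped. Nrp2 was at 140 ± 70.9 CPM in endothelial-like cells (SD, n = 7), 117 ± 55.8 CPM in monocyte/macrophage-like cells and 95.02 ± 44.9 CPM in microglia-like cells (SD, n = 7 each), all overlapping. Dendritic-like cells had the highest Nrp2 mean, 182 CPM, from 286 CPM in BP 1 and 77.9 CPM in UT. Of all Nrp2 UMIs, 49.1% lay in monocyte/macrophage-like cells, but the share ran from 8.24% in CD40 to 78.2% in UT and was 29.8% without BP 1. Endothelial-like cells held 7.96% of Nrp2 UMIs (0.616% to 21.5% by library), and 13.6% without BP 1. Tumour-like cells held 50.03% of the Nrp1 UMIs in all, with 1.96% to 6.52% in IgG 1, BP 2 and BPI and 32.9% to 67.6% in the other 4 libraries.

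The genes most like each member were ranked by Pearson's r of log2(CPM + 1) over 17 class means, which share libraries and differ in depth. Kdr was closest to Pltp (r = 0.87) and Flt1 to Eng (r = 0.83), a receptor of the TGF-beta family found on endothelium. Flt4 was closest to Kcnq1 (r = 0.94), Pgf to Wnt5a (r = 0.91), Vegfa to Tiam2 (r = 0.80) and Vegfb to Pgm1 (r = 0.94). Vegfc was closest to Avil (r = 0.86), Nrp1 to Fcgrt (r = 0.87) and Nrp2 to Rnf135 (r = 0.83).

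Endothelial-like cells were 0.219% and 1.12% of cells in IgG 1 and IgG 2, and 0.259%, 0.105% and 0.346% in BP 1, BP 2 and BPI. They were 1.23% of UT and 1.81% of CD40. A cluster of 76 cells that stayed unnamed, with Kdr at 539 CPM and Flt1 at 2559 CPM, was not counted as endothelial-like. It held 0 and 18 cells of IgG 1 and IgG 2, 1, 2 and 3 of BP 1, BP 2 and BPI, 4 of UT and 48 of CD40. The anti-VEGF mean of 0.237% ± 0.122 (SD, n = 3) and the IgG mean of 0.670% ± 0.638 (SD, n = 2) differed by -0.433 percentage points. An exact two-sided permutation test gave p = 0.3, but with 3 against 2 libraries it cannot go below 0.1, so it could not have passed 0.05 and decides nothing here. IgG 1 lay inside the anti-VEGF range, and without IgG 2 the difference was 0.0181 points, the other way.

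Within endothelial-like cells, no receptor passed the test between anti-VEGF and IgG libraries in the fit that held every library but UT. These cells numbered 13 and 84 in IgG and 25, 6 and 23 in BP 1, BP 2 and BPI, so BP 2 rests on 15480 UMIs. The 10 tumour markers summed to 854 CPM in the endothelial-like cells of BP 1 and to 129.2 to 379 CPM in the other 6 libraries, and their part in the differences was not tested. Kdr was 565 and 695 CPM in IgG 1 and IgG 2, 249 and 969 CPM in BP 1 and BP 2, 425 CPM in BPI, 284 CPM in UT and 741 CPM in CD40. BP 1, BPI and UT were below both IgG libraries and BP 2 was above both. The log2 difference was -0.75 ± 0.60 (SE) with an adjusted p of 0.975 (edgeR quasi-likelihood test with Benjamini-Hochberg adjustment over 8084 genes). Leaving out BP 2, after which BP held 1 library, gave -0.98. Within the cluster led by Apln, Cldn5 and Cd93, Kdr was 568 and 730 CPM in IgG and 323 and 455 CPM in BP 1 and BPI. Within the cluster led by Slco1a4 and Vwf it was 643 CPM in IgG 2 and 757, 818 and 350 CPM in BP 1, BP 2 and BPI, so the groups were apart in the first cluster and overlapped in the second. The remaining cluster, with Grrp1 and Acer2 among its leading genes, had Kdr at 75.7 CPM. It held 28.0% of the endothelial-like cells of BP 1 and 28.8% of those of UT, against 7.14% in IgG 2 and 4.26% in CD40, and no more than 2 cells of each other library. Levels weigh cells by their UMIs, and BP 1 and UT differed there. This cluster held 207646 of the 481463 endothelial-like UMIs of BP 1, 123221 of 801958 in UT and 59965 of 1633579 in IgG 2. Kdr in it was 77.1 CPM in BP 1, 64.9 CPM in UT and 50.03 CPM in IgG 2, and its part in the lower class values of BP 1 and UT was not tested. At Leiden resolution 2, Grrp1 and Acer2 were among the leading genes of a cluster of 40 cells. That cluster had 10 of 10 tumour markers raised beside 10 of 10 endothelial ones, and the part of tumour RNA was not tested.

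Nrp2 in endothelial-like cells was 149 and 181 CPM in IgG, 64.4, 258 and 76.8 CPM in BP 1, BP 2 and BPI, 78.6 CPM in UT and 169 CPM in CD40. BP 1, BPI and UT lay below both IgG libraries and BP 2 above both, as for Kdr. Within the cluster led by Apln, Nrp2 was 150 and 185 CPM in IgG and 109 and 38.5 CPM in BP 1 and BPI. Within the cluster led by Slco1a4 and Vwf it was 212 CPM in IgG 2 and 28.0, 102 and 215 CPM in BP 1, BP 2 and BPI (1, 1 and 8 UMIs). In the cluster with Grrp1 and Acer2 it was 9.46 CPM over all libraries, and 19.3 CPM in BP 1. Its log2 difference was -1.16 ± 0.52 (SE, edgeR adjusted p = 0.460), and without BP 2, after which BP held 1 library, it was -1.27.

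Flt1 was 1102 and 1623 CPM in IgG, 1622, 4587 and 1477 CPM in BP 1, BP 2 and BPI, 1253 CPM in UT and 1840 CPM in CD40. BP 2 was the highest and the other 6 were close together. Flt1 differed between the endothelial-like clusters: in the cluster led by Slco1a4 and Vwf it was 5300 CPM in IgG 2 and 6810, 6547 and 2985 CPM in BP 1, BP 2 and BPI, and in the cluster led by Apln, Cldn5 and Cd93 it was 1109 and 1170 CPM in IgG and 1835 and 1041 CPM in BP 1 and BPI. The first cluster held 83.3% of the endothelial-like cells of BP 2 and none of those of IgG 1. The log2 difference of Flt4 was -0.96 ± 0.54 (SE, edgeR adjusted p = 0.753), that of Nrp1 -0.21 ± 0.53 (adjusted p = 0.9997) and that of Flt1 0.43 ± 0.71 (adjusted p = 0.9997). None of the 6 members tested in these cells passed an adjusted p of 0.05, which 1.65% of genes did (0.161% in DESeq2), 1 had an unadjusted p under 0.05 (7.74% of genes), and none had all anti-VEGF libraries above both IgG libraries (8.55% of genes) or below both (10.9%).

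**Figure D2:**
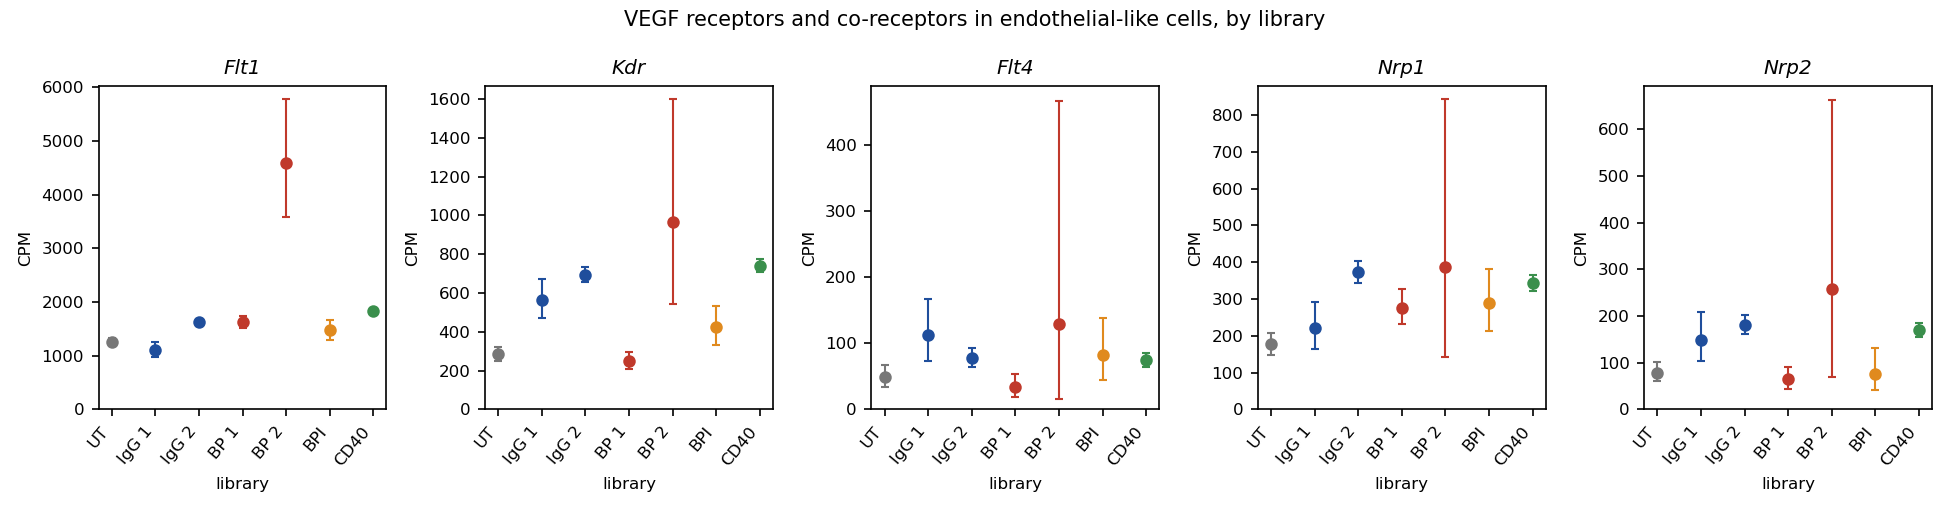
Level in CPM (y axes, starting at 0) of 5 receptors in endothelial-like cells of each library (x axis); points are single libraries and bars are exact 95% Poisson intervals for counting error. The anti-VEGF libraries (BP, red; BPI, orange) overlap the IgG libraries (blue) for each gene, UT is grey and CD40 green, and the bars of BP 2, with 6 cells, are widest.

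Among genes known to respond to VEGF in endothelium, Apln fell in the same cells. Apln, the apelin ligand made by sprouting tip cells, was 303 and 318 CPM in IgG 1 and IgG 2 and 14.5, 0 and 106 CPM in BP 1, BP 2 and BPI. UT had 175 CPM and CD40 had 349 CPM, so that the 3 anti-VEGF libraries were the lowest of the 7. The log2 difference was -3.59 ± 0.64 (SE, edgeR adjusted p = 5.01e-06), and the value within the 3 consecutive libraries was 303 CPM in IgG against 0 and 106 CPM. Apln is itself a leading gene of 1 of the clusters, which held 92.3% and 57.1% of the endothelial-like cells in IgG 1 and IgG 2, 44.0% and 47.8% in BP 1 and BPI, and 1 of 6 cells in BP 2. By UMIs it held 220100 of 221384 in IgG 1, 1385308 of 1633579 in IgG 2, 238135 of 481463 in BP 1 and 129725 of 169254 in BPI. The part of that makeup in the difference was not tested. Within that cluster, IgG had 304 and 373 CPM and BP 1 and BPI had 21.0 and 139 CPM. In the cluster led by Slco1a4 and Vwf, Apln was 10.6 CPM in IgG 2 and 56.1, 0 and 0 CPM in BP 1, BP 2 and BPI. The IgG 2 and BP 1 values there rest on 2 UMIs each. Of the 15480 endothelial-like UMIs of BP 2, 9776 lay in that second cluster, which held no cell of IgG 1. The call was lost without IgG 2, although the log2 difference was -3.56 (edgeR adjusted p = 0.125), with BPI alone as the treated arm (log2 difference -1.40, adjusted p = 1) and when the 9 members were allowed in the clustering (-1.78, adjusted p = 0.147).

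Of the 20 VEGF-response and tip-cell genes on the list, 18 were tested in endothelial-like cells, and 2 passed an adjusted p of 0.05, both lower (Apln and Esm1). At an unadjusted p of 0.05, 10 of the 18 were lower and 0 higher, beside 7.74% of all genes in either direction, and 6 had every anti-VEGF library below both IgG libraries, beside 10.9% of all genes. The median log2 difference was -1.07, against -0.11 over all genes. Among those that did not pass were Igfbp3 (-1.69 ± 0.56, adjusted p = 0.105), Fscn1, an actin bundler of migrating cells (-1.15 ± 0.50, adjusted p = 0.428), and Ets1, an endothelial transcription factor (-0.81 ± 0.56, adjusted p = 0.939), all from edgeR with SE. Some of these genes also differed between the clusters: in IgG 2, Fscn1 was 275 CPM in the cluster led by Apln and 21.2 CPM in that led by Slco1a4 and Vwf, and Igfbp3 was 162 and 10.6 CPM. Within the cluster led by Apln, Fscn1 was 109 and 275 CPM in IgG and 63.0 and 131 CPM in BP 1 and BPI, and Igfbp3 was 777 and 162 CPM against 134 and 478 CPM, so that both overlapped. Ets1 was 477 and 565 CPM in IgG against 391 and 316 CPM there, with no overlap. In the cluster led by Slco1a4 and Vwf, Ets1 was 377 CPM in IgG 2 and 561, 307 and 215 CPM in BP 1, BP 2 and BPI, which overlap. The part of the makeup in the counts of the list was not tested. Plvap, a gene of fenestrated vessels, was at 0.27 ± 0.51 (SE, edgeR adjusted p = 0.9997). The 10 lower genes became 3 in DESeq2, 3 with the consecutive libraries as a block, 2 with BPI alone and 4 with the members allowed in the clustering, and 0 passed an adjusted p of 0.05 in the last 2. Leaving out IgG 2 or BP 2 leaves 1 library in that group, and the median was -0.70 without IgG 2 and -1.16 without BP 2.

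Esm1, a proteoglycan of tip cells, passed the test with groups that overlap. It was 0 and 86.9 CPM in IgG 1 and IgG 2, 0, 0 and 88.6 CPM in BP 1, BP 2 and BPI, 0 in UT and 77.0 CPM in CD40. Its fitted difference of -5.53 ± 1.33 (SE, edgeR adjusted p = 0.00385) turned to 3.08 without IgG 2 and to 0.79 with BPI alone. It also lost the call in DESeq2 (adjusted p = 1), and in edgeR without BP 1 (0.619), with the consecutive libraries as a block (1), with UT among the controls (0.998) and with the members allowed in the clustering (0.882). Ccn2, a matrix protein that binds VEGF, was 49.7 and 55.7 CPM in IgG, 67.3 CPM in UT and 51.3 CPM in CD40. The anti-VEGF libraries together had 1 Ccn2 UMI of 666197, against 102 of 1854963 in IgG, a ratio of 0.0273 with a 95% counting interval of 0.000684 to 0.156 (edgeR adjusted p = 0.000109). DESeq2 did not call Ccn2 (adjusted p = 0.505), nor was it called by edgeR with BPI alone (adjusted p = 0.201) or with the 9 members allowed in the clustering (0.0934).

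**Figure D3:**
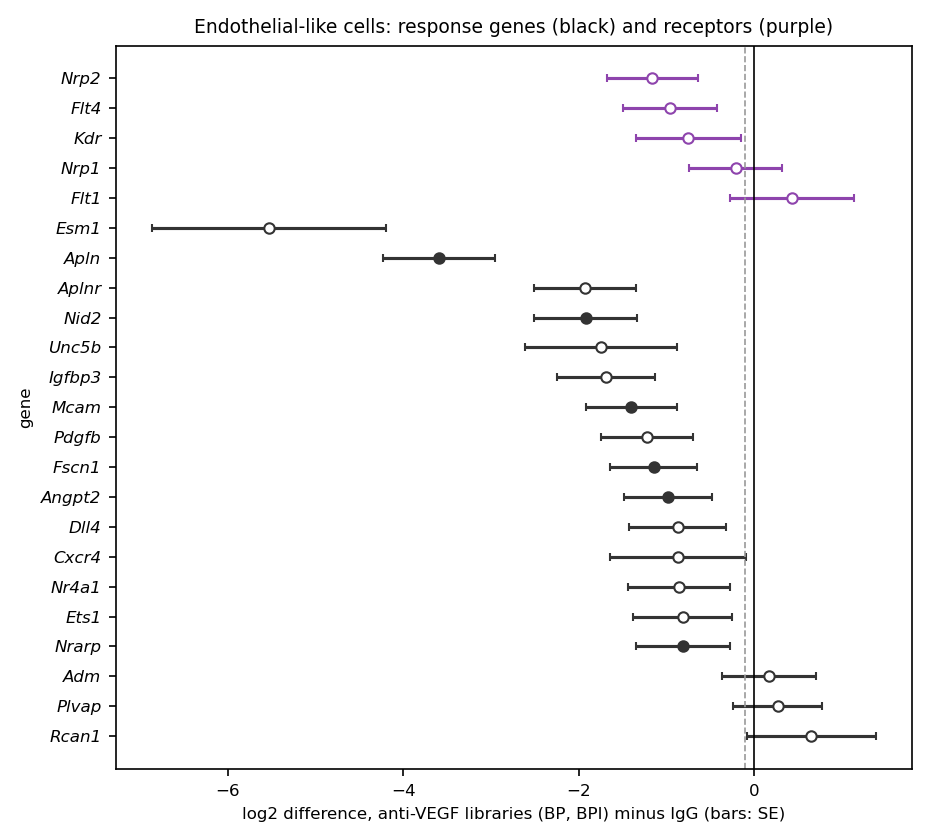
Log2 difference between anti-VEGF and IgG libraries in endothelial-like cells (x axis) for 18 VEGF-response genes (black) and 5 receptors (purple), with bars of 1 SE; filled points are genes with every anti-VEGF library below both IgG libraries, and the dashed line is the median of all genes. Apln is the filled point farthest to the left, and Esm1, farther left still, is open because its groups overlap.

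The list of VEGF receptor signalling gave no call in endothelial-like cells, where few genes were called in all. Of its 30 genes (Plcg1, Src, Nos3 and others), 25 were tested and 0 passed an adjusted p of 0.05 in edgeR, beside 1.65% of all genes, with 0 at an unadjusted p of 0.05 (7.74% of all genes) and a median of -0.15 against -0.11 over all genes. Ptprb, a phosphatase of endothelial cells that acts on their receptors, was at 784 ± 188 CPM (SD, n = 7) and its log2 difference was -0.22 ± 0.62 (SE, edgeR adjusted p = 0.9997). Of 12 class 3 semaphorins and plexins 6 were tested, and of 6 lymphatic genes 2 were tested, with 0 passing in both. Of 19 genes of VEGF release and storage 10 were tested, and 1, Ccn2, passed. These counts too stand beside 1.65% of all genes in edgeR and 0.161% in DESeq2.

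In monocyte/macrophage-like cells every anti-VEGF library lay above both IgG libraries in Vegfa and Flt1 and below both in Vegfb and Nrp1, although no member passed the adjusted threshold in edgeR with its filter on low counts. These cells numbered 76 and 63 in IgG and 1803, 266 and 643 in BP 1, BP 2 and BPI. Vegfa was 8.51 and 6.00 CPM in IgG 1 and IgG 2 and 58.6, 24.2 and 30.7 CPM in BP 1, BP 2 and BPI. UT had 12.2 CPM and CD40 had 11.6 CPM, so that the 3 anti-VEGF libraries were the highest of the 7. The log2 difference was 2.64 ± 0.52 (SE, edgeR adjusted p = 0.145). DESeq2 gave 2.58 with an adjusted p of 0.0229. An edgeR fit with the 3 consecutive libraries as a block, which keeps hardly any replication, gave 2.80 with an adjusted p of 1.70e-06. Without the filter on low counts edgeR called it too (2.75, adjusted p = 8.87e-05), while with UT pooled into the controls edgeR gave 2.02 (adjusted p = 0.9998). The IgG values rest on 5 and 8 UMIs.

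Flt1, by which monocytes respond to Vegfa and Pgf, was 34.0 and 20.2 CPM in IgG, 349, 67.7 and 95.1 CPM in BP 1, BP 2 and BPI, 125 CPM in UT and 33.5 CPM in CD40. All anti-VEGF libraries were above both IgG libraries, and so was UT. The log2 difference was 2.78 ± 0.69 (SE, edgeR adjusted p = 0.198), DESeq2 gave 2.71 (adjusted p = 0.00223), the block of consecutive libraries gave 2.76 (adjusted p = 2.34e-07) and edgeR without the filter gave 2.91 (adjusted p = 2.60e-08). With UT among the controls the difference was 1.32 (edgeR adjusted p = 0.9998). The 10 endothelial markers summed to 226 CPM in the monocyte/macrophage-like cells of BP 1, with all 10 detected, and to 27.7 to 59.4 CPM in the other 6 libraries, where 0 to 8 of them were at 0. Their part in the Flt1 value was not tested.

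Vegfb and Nrp1 had the opposite order. Vegfb was 25.5 and 42.0 CPM in IgG, 13.2, 11.51 and 9.29 CPM in BP 1, BP 2 and BPI, 7.99 CPM in UT and 44.8 CPM in CD40. UT was the lowest, and the anti-VEGF libraries did not overlap IgG. The log2 difference was -1.39 ± 0.37 (SE, edgeR adjusted p = 0.221), and -1.35 with the consecutive libraries as a block (adjusted p = 0.0195). Nrp1 was 208 and 195 CPM in IgG, 92.5, 91.3 and 87.4 CPM in BP 1, BP 2 and BPI, 84.7 CPM in UT and 142 CPM in CD40. The 3 anti-VEGF libraries and UT lay close together below both IgG libraries and CD40, and the log2 difference was -0.93 ± 0.33 (SE, edgeR adjusted p = 0.351).

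Nrp2 was 102 and 103 CPM in IgG and 211, 79.2 and 78.7 CPM in BP 1, BP 2 and BPI, with 178 CPM in UT and 65.2 CPM in CD40. Its groups overlapped, and the log2 difference was 0.40 ± 0.42 (SE, edgeR adjusted p = 0.822). Pgf was at 0 UMIs in both IgG libraries and CD40 and at 18.3 CPM (324 UMIs) in BP 1, with 1.21 and 0.31 CPM in BP 2 and BPI. Of the 8 members tested, 5 had an unadjusted p under 0.05 beside 10.6% of all genes, Pgf not being among the 5. After adjustment 0 passed a p of 0.05, as for 0% of genes. Pgf passed the filter on low counts through BP 1 alone, so its order is not counted here. Of the other 7, the anti-VEGF libraries were all above both IgG libraries for 2 (10.1% of all genes) and all below for 2 (19.8%). DESeq2 called 211 genes (1.79%) at an adjusted p of 0.05 in these cells where edgeR called 0 and had 1258 at an unadjusted p under 0.05.

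A pair of clusters made up this class in unequal parts. The cluster led by Arg1, Mrc1 and Chil3, genes of tissue macrophages, held 97.2% of the class in BP 1 and 4.64% to 23.8% in the other libraries. Within the other cluster, led by Ms4a4c and Cxcl2, Vegfa was 9.16 and 5.66 CPM in IgG and 12.4, 24.5 and 31.9 CPM in BP 1, BP 2 and BPI. Flt1 there was 33.0 and 16.2 CPM in IgG against 129.02, 66.3 and 98.2 CPM, and Nrp1 was 216 and 204 CPM against 76.9, 91.4 and 88.2 CPM. Vegfb was 27.5 and 45.3 CPM against 7.44, 10.9 and 8.78 CPM. Vegfa there was 12.3 CPM in UT and 12.8 CPM in CD40, so that BP 1 lay between them and was not above both, unlike in the whole class. Against IgG, all 4 genes had the sides of the whole class in that cluster, with the Vegfa value of BP 1 resting on 5 UMIs. They did not in the cluster led by Arg1, where IgG rests on 10 and 15 cells. Vegfb was 0 there in both IgG libraries, of 41362 and 97249 UMIs, and 13.4, 19.9 and 19.5 CPM in BP 1, BP 2 and BPI (231, 2 and 3 UMIs), the other way round. Flt1 was 48.4 and 72.0 CPM in IgG and 354, 89.5 and 32.5 CPM in the same 3 libraries, so that BPI was below IgG. Vegfa was 0 and 10.3 CPM in IgG (0 and 1 UMIs) against 59.6, 19.9 and 6.49 CPM, with BPI inside the IgG range, and Nrp1 overlapped (96.7 and 82.3 CPM against 92.9, 89.5 and 71.4 CPM). The part of the cluster makeup in the class values was not tested. In the whole class the 3 consecutive libraries gave the same sides, for example a Vegfa of 8.51 CPM in IgG 1 against 24.2 and 30.7 CPM.

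**Figure D4:**
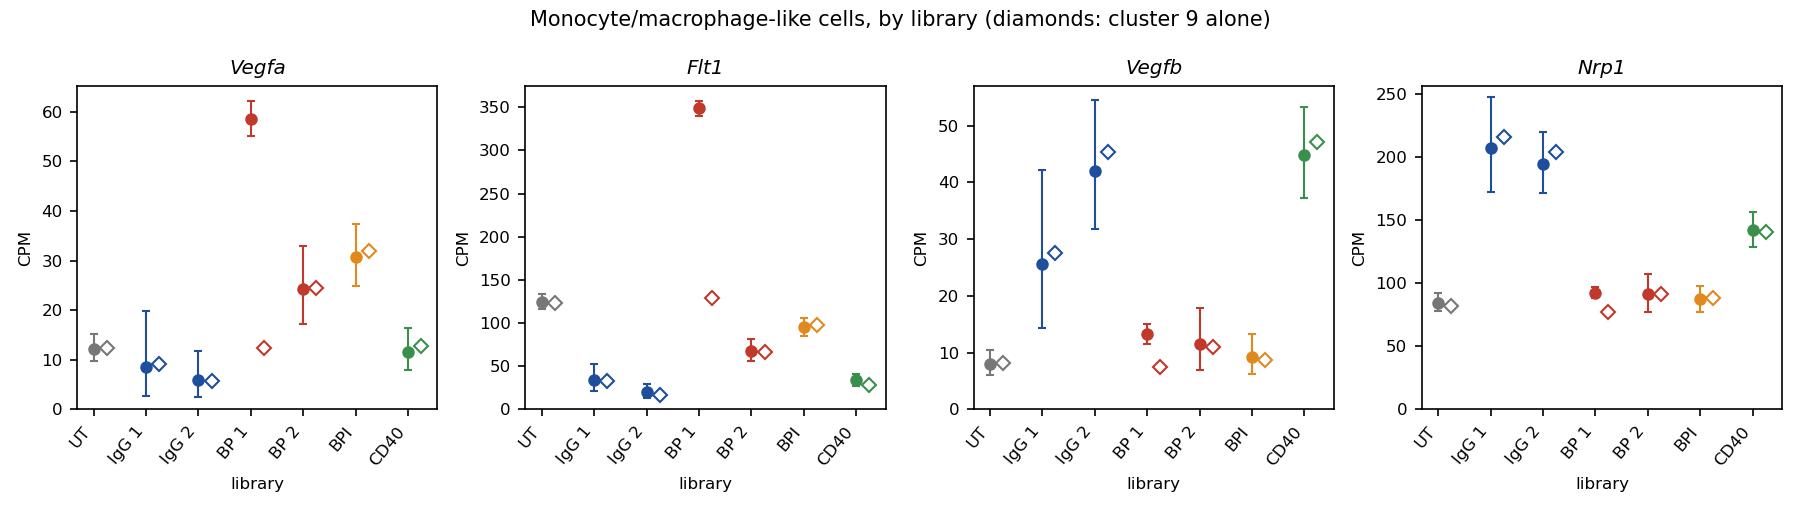
Level in CPM (y axes, starting at 0) of 4 genes in monocyte/macrophage-like cells of each library (x axis); filled points are the whole class with exact 95% Poisson intervals and open diamonds are the cluster led by Ms4a4c and Cxcl2 alone. Vegfa and Flt1 are above both IgG libraries in BP 1, BP 2 and BPI, and Vegfb and Nrp1 are below both, in the whole class and in the cluster led by Ms4a4c and Cxcl2.

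Genes of the hypoxia pathway, which raises Vegfa transcription when oxygen is low, were examined in the same cells, both its regulators and its targets. Of the 20 genes listed, 19 were tested, 0 passed an adjusted p of 0.05 and 6 were higher at an unadjusted p of 0.05 (0 lower), beside 10.6% of all genes in either direction. In every anti-VEGF library 9 of the 19 were above both IgG libraries (10.1% of all genes) and 0 below (19.8%). The median log2 difference was 0.69, against 0.02 over all genes. Slc2a1, the glucose transporter, was at 2.12 ± 0.54 (SE, edgeR adjusted p = 0.203) and Ldha, lactate dehydrogenase, at 0.61 ± 0.40 (adjusted p = 0.648). The summed level of the list was 1377 and 1098 CPM in IgG and 3038, 1451 and 1861 CPM in the anti-VEGF libraries, while UT, with a Vegfa of 12.2 CPM, had 3210 CPM. Over all libraries it was 2986 CPM in the cluster led by Arg1, with 97.2% of the class in BP 1, and 2228 CPM in the other. The part of the makeup in the hypoxia list was not tested.

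In tumour-like cells, Vegfa was higher in every anti-VEGF library than in IgG, by a margin that was thin for 1 of them. It was 15.6 and 22.9 CPM in IgG 1 and IgG 2, 70.8, 28.7 and 23.1 CPM in BP 1, BP 2 and BPI, 14.3 CPM in UT and 30.4 CPM in CD40. BP 1 stood far above the rest, and CD40, with no antibody to VEGF, was above BP 2 and BPI. A tumour-like cluster with 96.1% of its cells from BP 1 held Vegfa at 69.3 CPM, and the other tumour-like clusters held 14.6 to 47.5 CPM. The compared libraries lay in different clusters: 3 clusters with Wfdc2 among their leading genes held 97.7%, 96.0% and 96.4% of the tumour-like cells of IgG 1, BP 2 and BPI and 0.338% of those of IgG 2, of which 96.1% lay in 4 clusters that it shared with CD40. The cluster mostly of BP 1, led by Pde10a, held 88.2% of the cells of that library. In the 3 clusters with Wfdc2, Vegfa was 19.6, 16.0 and 15.5 CPM in IgG 1. BP 2 had 30.8, 29.0 and 29.2 CPM there and BPI had 21.1, 24.3 and 24.4 CPM. IgG 2 had 37.3, 14.3 and 44.2 CPM, on 3, 1 and 7 UMIs. In the 4 clusters of IgG 2 and CD40, BP 2 and BPI, on 0 to 15 UMIs, lay on both sides of IgG 2. In the cluster at 47.5 CPM, BP 1 had 75.6 CPM, IgG 2 19.2 CPM, BPI 14.1 CPM (1 UMI) and CD40 23.4 CPM. The part of the makeup in the Vegfa difference was not tested. The log2 difference was 1.04 ± 0.40 (SE, edgeR adjusted p = 0.99995), and it ranged from 0.48 to 1.33 over the alternatives run, none of which called it. Among the 3 consecutive libraries the values were 15.6 CPM in IgG against 28.7 and 23.1 CPM.

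Vegfb in tumour-like cells was 54.1 and 85.8 CPM in IgG, 45.8, 55.0 and 52.6 CPM in BP 1, BP 2 and BPI, 40.6 CPM in UT and 84.1 CPM in CD40. The highest 2 values were those of IgG 2 and CD40, which carry consecutive names, and the log2 difference of -0.36 ± 0.28 (SE, edgeR adjusted p = 0.99995) did not exceed the spread between libraries. Pgf was between 3.12 and 7.90 CPM in all 7 libraries. All 9 members were tested in these cells. None passed an adjusted p of 0.05 (0% of genes), 1 had every anti-VEGF library above both IgG libraries (6.2% of genes) and 0 had every one below (11.9%). At an unadjusted p of 0.05 edgeR had 0 members and 410 genes (2.03%), and DESeq2 called 74 genes (0.366%) after adjustment. Of the hypoxia list all 20 genes were tested in tumour-like cells, with 0 passing and a median of 0.14 against -0.01 over all genes.

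**Figure D5:**
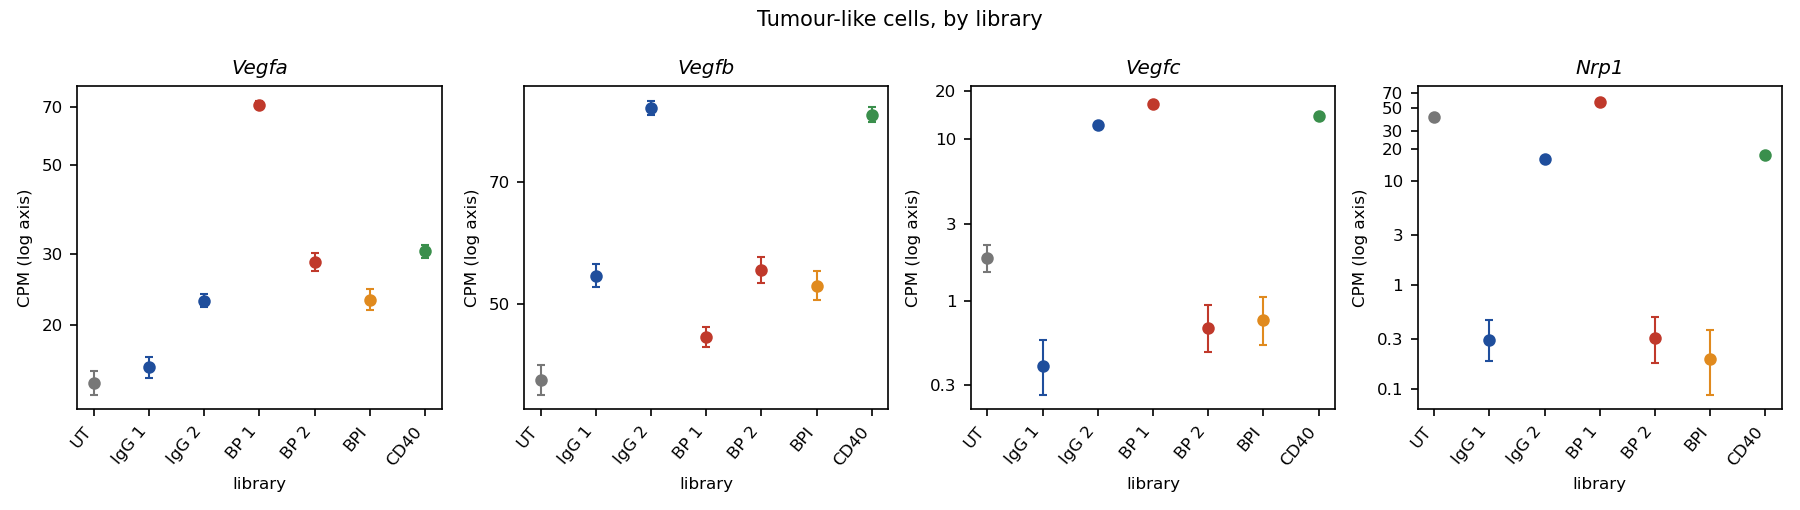
Level in CPM (log axes) of 4 genes in tumour-like cells of each library (x axis), with exact 95% Poisson intervals. Vegfa is highest in BP 1 and higher in BP 2 and BPI than in both IgG libraries, while Vegfc and Nrp1 are lowest in IgG 1, BP 2 and BPI, 3 libraries with consecutive names.

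Microglia-like and T-like cells showed less. In microglia-like cells, the resident macrophages of the brain, Vegfb was 59.1 and 50.1 CPM in IgG, 40.3, 37.5 and 23.3 CPM in BP 1, BP 2 and BPI, 16.9 CPM in UT and 52.2 CPM in CD40. The anti-VEGF libraries and UT were below both IgG libraries, and the log2 difference was -0.65 ± 0.27 (SE, edgeR adjusted p = 0.9999). Here too the libraries drew unequally on a pair of clusters. The cluster led by Cxcl13, Spp1 and Il1a held 34.1% and 35.0% of the class in IgG, 100% in BP 1, 10.6% in BP 2, 49.2% in BPI, 84.3% in UT and 41.2% in CD40, and the rest lay in the cluster with P2ry12, Gpr34 and Tmem119. In the first cluster Vegfb was 60.9 and 57.0 CPM in IgG and 40.3, 11.6 and 12.9 CPM in BP 1, BP 2 and BPI, the last 2 on 1 and 5 UMIs. In the second it was 56.0 and 38.7 CPM in IgG and 42.8 and 38.9 CPM in BP 2 and BPI, which overlap. Flt1 was 12.9 and 29.3 CPM in IgG and 205, 15.8 and 4.66 CPM in the anti-VEGF libraries, so its difference of 0.87 ± 1.09 (SE, edgeR adjusted p = 0.9999) rested on BP 1 and was -1.37 without it. Flt1 was at 87.7 CPM over the cluster led by Cxcl13, which held all microglia-like cells of BP 1, and at 4.498 CPM over the other. Within the former it was 16.2 and 44.9 CPM in IgG and 205, 69.6 and 7.77 CPM in BP 1, BP 2 and BPI, and the part of the makeup in the Vegfb and Flt1 differences was not tested. Nrp1 at -0.01 ± 0.40 and Nrp2 at -0.49 ± 0.42 did not pass (edgeR adjusted p = 0.9999 for both). Of 6 members tested, 0 passed (0% of genes), 1 was below both IgG libraries in every anti-VEGF library (12.1% of genes) and 0 above (6.59%). At an unadjusted p under 0.05 edgeR had 1 member, Vegfb, and 547 genes (4.44%), and DESeq2 called 57 genes (0.462%).

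In T-like cells only Nrp1 averaged 20 CPM or more over the fitted libraries. It was 32.8 and 32.3 CPM in IgG, 133, 55.1 and 19.1 CPM in BP 1, BP 2 and BPI, 114 CPM in UT and 47.9 CPM in CD40. Both BP libraries were above IgG and BPI was below, and the log2 difference of 0.66 ± 0.55 (SE, edgeR adjusted p = 0.868) turned to -0.68 with BPI alone. Of 2 members tested, 0 passed, beside 1.17% of genes (0.273% in DESeq2), and 0 had an unadjusted p under 0.05 (8.35%) or lay below both IgG libraries (9.38%). Vegfb, the other, was in every anti-VEGF library above both IgG libraries (20.7% of genes), on 1 and 2 UMIs in IgG. Among the listed genes Itgav, an integrin subunit, was higher (1.96 ± 0.51 SE, edgeR adjusted p = 0.0235) and Cxcr4, a chemokine receptor, lower (-1.66 ± 0.45 SE, edgeR adjusted p = 0.0354). DESeq2 called neither (adjusted p = 0.283 and 0.336). In edgeR neither was called without IgG 2 (adjusted p = 0.783 and 0.974), without BP 1 (0.186 and 0.0549), with BPI alone (0.525 for both), with UT among the controls (0.9997 for both) or with free RNA subtracted (0.131 and 0.196). Itgav, whose difference was 0.30 with UT among the controls, was not called at Leiden resolution 2 either (edgeR adjusted p = 0.177), nor Cxcr4 without a filter on low counts (0.0558).

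CD40 against the same IgG libraries gave no called member in any of the 5 classes, with the spread of the lone CD40 library taken from the other groups. The shares of all genes called by edgeR were 0% in tumour-like, monocyte/macrophage-like and microglia-like cells, 0.12% in T-like cells and 0.161% in endothelial-like cells. No member had an unadjusted p under 0.05 either, while 16 (0.0791%), 114 (0.965%), 39 (0.316%), 356 (3.89%) and 86 (1.06%) of all genes did, in the same order of classes. With DESeq2 the count was 3 (0.0254%) in the monocyte/macrophage-like class, against 0 in the other 4 classes. By order alone, CD40 was above both IgG libraries in 6 of 9 members in tumour-like (45.8% of genes), 2 of 8 in monocyte/macrophage-like (29.7%), 4 of 6 in microglia-like (31.7%), 2 of 2 in T-like (37%) and 3 of 6 in endothelial-like cells (31.1%). It was below both in 0 (18.5%), 2 (28.6%), 0 (31.4%), 0 (20.7%) and 1 (23.5%), in the same order. In endothelial-like cells Kdr was 741 CPM in CD40 against 565 and 695 CPM in IgG 1 and IgG 2, and Flt1 was 1840 CPM against 1102 and 1623 CPM, both above the IgG pair. Flt4 was 74.2 CPM against 113 and 77.7 CPM, below it. Nrp1 was 344 CPM against 221 and 373 CPM and Nrp2 169 CPM against 149 and 181 CPM, both between the IgG values. Both comparisons share the IgG libraries.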

How the data were processed

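The 7 libraries were deposited as raw UMI counts for every barcode. The authors' counting tool is Cell Ranger 4 per the file headers and Cell Ranger 7.0.1 on mm10 per the submitters' processing notes, a difference that was not settled. All later steps were run here with scanpy 1.11.5, edgeR 4.0.16 and DESeq2 1.42.0. Barcodes needed 1000 UMIs, 500 genes and no more than 15% mitochondrial UMIs, and the highest Scrublet scores (0.8% per 1000 cells) were dropped as doublets. Clusters (2000 variable genes without the members, 30 components, 15 neighbours, Leiden resolution 1) took names from 21 marker lists: a name needed 3 markers that reached 20 CPM and exceeded the lower-quartile cluster 4-fold. The cell names were rebuilt here. The members, lists and naming rule were chosen with earlier results of these data known.

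Class means use libraries with 20 cells of a class (5 for endothelial-like and mural-like). For each class, summed counts of all libraries but UT (6) were fitted with edgeR (quasi-likelihood, TMM, filterByExpr), the 3 anti-VEGF libraries weighing the same and the lone BPI and CD40 libraries assumed to vary like the rest. Adjusted p-values are Benjamini-Hochberg over all genes of a class and measure the spread between pooled libraries. UT, whose barcodes come from another list, stayed out of the fit. Fold changes are printed for members at 20 CPM or more over the fit. Named genes are the 9 members, the most similar genes, the most abundant of each list in endothelial-like and tumour-like cells, and listed genes that passed. The fit was tested on simulated counts. Free RNA was estimated from barcodes of 10 to 100 UMIs. Intervals are exact 95% and cover counting error only. Alternatives were the tool, the filter, blocks, each library left out, BP or BPI alone, UT among the controls, free RNA subtraction, doublets and clustering. Promoters come from RefSeq (9 of 9 matched).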

Additional observations from a re-analysis of the deposited data

How the results depend on the processing

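The counts of genes called between anti-VEGF and IgG libraries moved with the method. DESeq2 called 74 in tumour-like, 211 in monocyte/macrophage-like, 57 in microglia-like, 25 in T-like and 13 in endothelial-like cells, where edgeR called 0, 0, 0, 107 and 133. Without a filter on low counts edgeR called 653 and 278 in the 2 myeloid classes. The library set as a block gave 12, 820, 2 and 65 in tumour-like, monocyte/macrophage-like, microglia-like and endothelial-like cells. Same-numbered libraries did not deviate together (correlation -0.714 in tumour-like to 0.055 in endothelial-like cells), so the numbers do not pair them. The replicate block gave 34 in monocyte/macrophage-like, 10 in microglia-like, 0 in T-like and 28 in endothelial-like cells, and the crossed pairing, added after seeing the data, gave 10 in tumour-like, 265 in monocyte/macrophage-like and 68 in endothelial-like cells. BPI alone gave 54 in T-like and 65 in endothelial-like cells, and BP alone gave 202 in the latter. With UT among the controls edgeR called 2 in T-like and 3 in endothelial-like cells. In T-like cells free RNA subtraction gave 25 and Leiden resolution 2 gave 59. Leaving out 1 library gave 0 to 1, 0 to 521, 0 to 399, 5 to 163 and 22 to 276 in the 5 classes.

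For CD40, DESeq2 gave 3 in monocyte/macrophage-like cells, and 0 in T-like and endothelial-like cells where edgeR called 11 and 13. No filter gave 44 and 39 in the 2 myeloid classes. The library set as a block gave 30 in monocyte/macrophage-like, 19 in T-like and 2 in endothelial-like cells. UT among the controls gave 0 in T-like and 0 in endothelial-like cells, and free RNA subtraction 1, doublets kept 4 and Leiden resolution 2 gave 1 in T-like cells, and members in the clustering gave 4 in endothelial-like cells. Leaving out 1 library gave 0 to 2 in microglia-like, 3 to 16 in T-like and 4 to 18 in endothelial-like cells.

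Some log2 differences changed sign. Nrp1 in endothelial-like cells was 0.086 with BPI alone and -0.55 to 0.24 with 1 library left out. In microglia-like cells Flt1 was -2.14 with BPI alone and -1.37 to 1.71 with 1 library left out, and Nrp2 was 0.083 with BP alone. Nrp1 there was 0.0054 with DESeq2, 0.031 with the replicate block, 0.042 crossed, 0.017 with the library set as a block, 0.16 with BP alone, 0.14 with doublets kept, 0.0013 with members in the clustering and -0.48 to 0.12 with 1 library left out. Nrp2 in monocyte/macrophage-like cells was -0.090 with UT among the controls, and -0.088 to 0.52 with 1 library left out. Nrp1 in T-like cells was -0.68 with BPI alone and -0.38 with UT among the controls. Esm1 in endothelial-like cells was 0.79 with BPI alone and -6.30 to 3.08 with 1 library left out. The endothelial-like share differed by -0.884 to 0.0181 points with 1 library left out. With the replicate block edgeR did not call Ccn2 in endothelial-like cells (adjusted p = 0.125) or Itgav and Cxcr4 in T-like cells (0.452 and 0.687), and 3 tip-cell genes were lower at an unadjusted p of 0.05. The cause of these changes was not tested. In monocyte/macrophage-like cells Vegfa and Flt1 kept their sign under every alternative run. Both were called by edgeR with the crossed pairing (adjusted p = 0.00787 and 0.0155) and without BP 2 (log2 differences 2.81 and 2.99), which leaves 1 BP library. Beside these and the 3 alternatives given with the values, the 11 others run called neither. Among them were the replicate block (edgeR adjusted p = 0.107 and 0.0873), BP alone (0.306 and 0.327), BPI alone (0.173 and 0.350) and free RNA subtraction (0.0979 and 0.150). Leaving out IgG 1, IgG 2 or BP 1 called neither as well. Keeping doublets was not run for endothelial-like cells, because BP 2 then held 1 of them. Depth limits the endothelial-like values of BP 2 (6 cells) and the monocyte/macrophage-like values of both IgG libraries (76 and 63 cells).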
